A study of Homo sapiens with 6 samples.

Results

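The EGF receptor family and its ligands were followed in U87 cells, an established human glioblastoma line. The members are 10 genes, the receptors EGFR, ERBB2 and ERBB3 and the ligands EREG, HBEGF, TGFA, BTC, EGF, NRG1 and AREG. Every array probe set annotated with 1 of these symbols alone was taken, which gave 25 of the 22277 probe sets of the array, for 9 of the 11963 named genes. The 3 receptors had 10 probe sets and 6 ligands had 15. AREG, the amphiregulin gene, had no probe set in the annotation used and is not described by values here. The IRE1dn group is 3 arrays of 1 clone, U87 IRE1.NCK DN, which expresses a dominant negative transgene of IRE1alpha, the stress sensor of the endoplasmic reticulum. The ctrl group is 3 arrays of U87 cells carrying the empty plasmid, for which the labels speak of clones in the plural. All cells were grown for 16 h in medium with 10% serum. The series was made to find genes linked to invasion and blood vessel growth. The labels do not say whether arrays of a group came from separate cultures, so the p-values measure the spread between these arrays, which may be technical. A difference between the groups cannot be told apart from a difference between clones.

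The receptors of this family are tyrosine kinases of the cell surface that act in pairs. EGFR binds EGF, TGFA, AREG, EREG, HBEGF and BTC, while NRG1, a neuregulin, binds ERBB3 and ERBB4. ERBB2 has no known soluble ligand and serves as the partner of the others, and ERBB3 has little kinase activity of its own. The ligands are made as membrane-anchored precursors that ADAM proteases cut free. Signals run through RAS and ERK, which in turn induce their own inhibitors, and EGFR is often amplified in glioblastoma.

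In the IRE1dn cells the ligands EREG and HBEGF were lower. The receptors EGFR and ERBB2 were higher in part of their probe sets, and none of these receptor calls held without IRE1dn array 2 or 3. EREG, epiregulin, fell from a mean signal of 441 to 12.3 units, HBEGF fell 4.63-fold and 4.89-fold in the 2 probe sets that lay above the dim range, and EGFR rose 1.70-fold to 1.85-fold in its 2 brightest probe sets. EGF itself rose from a very low signal, a call that ended without IRE1dn array 1 or 3, and TGFA did not pass the test. To show what lies upstream of the ligands that fell from a bright signal and of the brightest receptor, the 250 bases before the RefSeq start of EREG, HBEGF and EGFR are given 5′ to 3′ in build GRCh38.p14. Capitals mark TATA motifs (TATAAA), GC boxes (GGGCGG) and AP-1 motifs (TGANTCA) on either strand. They lie at chr4:74364895-74365144 on the plus strand for EREG, chr5:140346604-140346853 on the minus strand for HBEGF, and chr7:55018767-55019016 on the plus strand for EGFR.
EREG: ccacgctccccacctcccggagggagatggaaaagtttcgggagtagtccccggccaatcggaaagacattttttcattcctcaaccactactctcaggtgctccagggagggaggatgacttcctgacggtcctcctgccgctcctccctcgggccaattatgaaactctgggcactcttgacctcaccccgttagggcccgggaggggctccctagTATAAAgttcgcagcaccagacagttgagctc
HBEGF: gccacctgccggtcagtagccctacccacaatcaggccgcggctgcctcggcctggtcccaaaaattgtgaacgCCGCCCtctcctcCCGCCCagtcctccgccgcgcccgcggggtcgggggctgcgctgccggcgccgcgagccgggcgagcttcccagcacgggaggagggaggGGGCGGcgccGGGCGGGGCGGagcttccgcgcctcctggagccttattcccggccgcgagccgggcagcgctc
EGFR: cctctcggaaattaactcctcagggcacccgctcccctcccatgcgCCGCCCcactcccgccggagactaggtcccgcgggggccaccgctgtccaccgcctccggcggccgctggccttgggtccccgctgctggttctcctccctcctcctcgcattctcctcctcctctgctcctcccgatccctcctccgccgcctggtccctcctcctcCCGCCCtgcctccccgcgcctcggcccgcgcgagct

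The 3 windows differ in their letters. The EREG window holds 1 TATA motif, whose first base lies 32 bases before the start, and no GC box, and 58.0% of its bases are G or C. The HBEGF window holds 5 GC boxes, of which the last 2 share a base, no TATA motif and 76.4% G or C. The EGFR window, the first of 2 listed for this gene, holds 2 GC boxes, no TATA motif and 73.6% G or C. Over 35116 RefSeq windows of this length, 10.7% hold a TATA motif, 42.6% a GC box and 6.57% an AP-1 motif. None of the 3 printed windows holds the AP-1 letters, the cyclic AMP response element TGACGTCA (1.65% of windows) or the unfolded protein response element TGACGTGG (0.612% of windows). The second EGFR window holds 2 AP-1 and 2 TATA motifs. Among windows of other members that are not printed, those of EGF and ERBB2 each hold 1 AP-1 motif, and that of AREG holds 1 cyclic AMP response element, 1 TATA motif and 1 GC box. Of the TGFA windows 1 holds 3 GC boxes and the other none of these motifs, and the BTC window holds none of them. These matches describe letters and were not tied to any measured binding.

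Signals were scaled by the submitters to the same trimmed mean on each array, 100.03 units, and array medians lay between 18.4 and 21.03. A signal of 13.0 units, the 40th percentile of the mean over genes, is used below as the level under which a signal is called dim and neither present nor absent, since no detection calls were used here. Of the 25 member probe sets, 13 had a mean above it. Among 9 glial and glioma markers, VIM, CD44, SOX9 and CHI3L1 lay above the level on all 6 arrays, whereas GFAP, S100B and SOX2 lay below it on all 6. The summed signal of these 9 was 4593 to 5441 in ctrl and 6330 to 9254 in IRE1dn arrays. The list went both ways: SOX9 (log2 change 2.64) and CHI3L1 (1.63) passed as higher and OLIG2, dim in IRE1dn arrays, as lower (-1.74, adjusted p = 0.026). CDKN2B, which U87 cells lack, lay at 0.175 to 0.714 units, and CDKN2A, also lacking, at 3.44 to 16.1, above the level on 2 arrays. A signal a little above the level is therefore no proof of a transcript. All 5 epithelial markers were dim on every array (sums of 10.9 to 18.5 in ctrl and 6.96 to 12.1 in IRE1dn), as were 3 of 5 endothelial markers (26.9 to 37.1 and 19.7 to 23.6) and 2 of 3 leukocyte markers (4.42 to 12.9 and 5.81 to 16.8). The part of these shifts in the results was not tested, and in such bulk RNA fewer cells of a type and less RNA per cell cannot be told apart. Control arrays were the more variable, with a median SD per gene of 0.34 on the log2 scale against 0.23 in IRE1dn arrays.

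Groups were compared with limma on log2(signal + 1.75), for all 22215 probe sets except array controls, and a probe set passed at a Benjamini-Hochberg adjusted p under 0.05. Log2 changes are IRE1dn minus ctrl, with their standard error (SE), and adjusted p-values named below are limma's. Of all probe sets 15.2% passed, 8.15% higher and 7.05% lower in IRE1dn cells. With array medians set equal this balance turned, from 1810 higher and 1567 lower to 1522 and 1800. Of the 10 receptor probe sets 3 were higher and 0 lower, with a median log2 change of 0.70. Of the 15 ligand probe sets 2 were higher and 4 lower, with a median of 0.26, and the median of all probe sets was 0.03. The receptor count became 0 higher without IRE1dn array 2 or 3 and 1 higher without ctrl array 1 or 3. The ligand count became 0 higher without IRE1dn array 1 or 3 and 1 higher without IRE1dn array 2, ctrl array 1 or ctrl array 2, with 3 or 4 lower throughout.

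**Figure D1:**
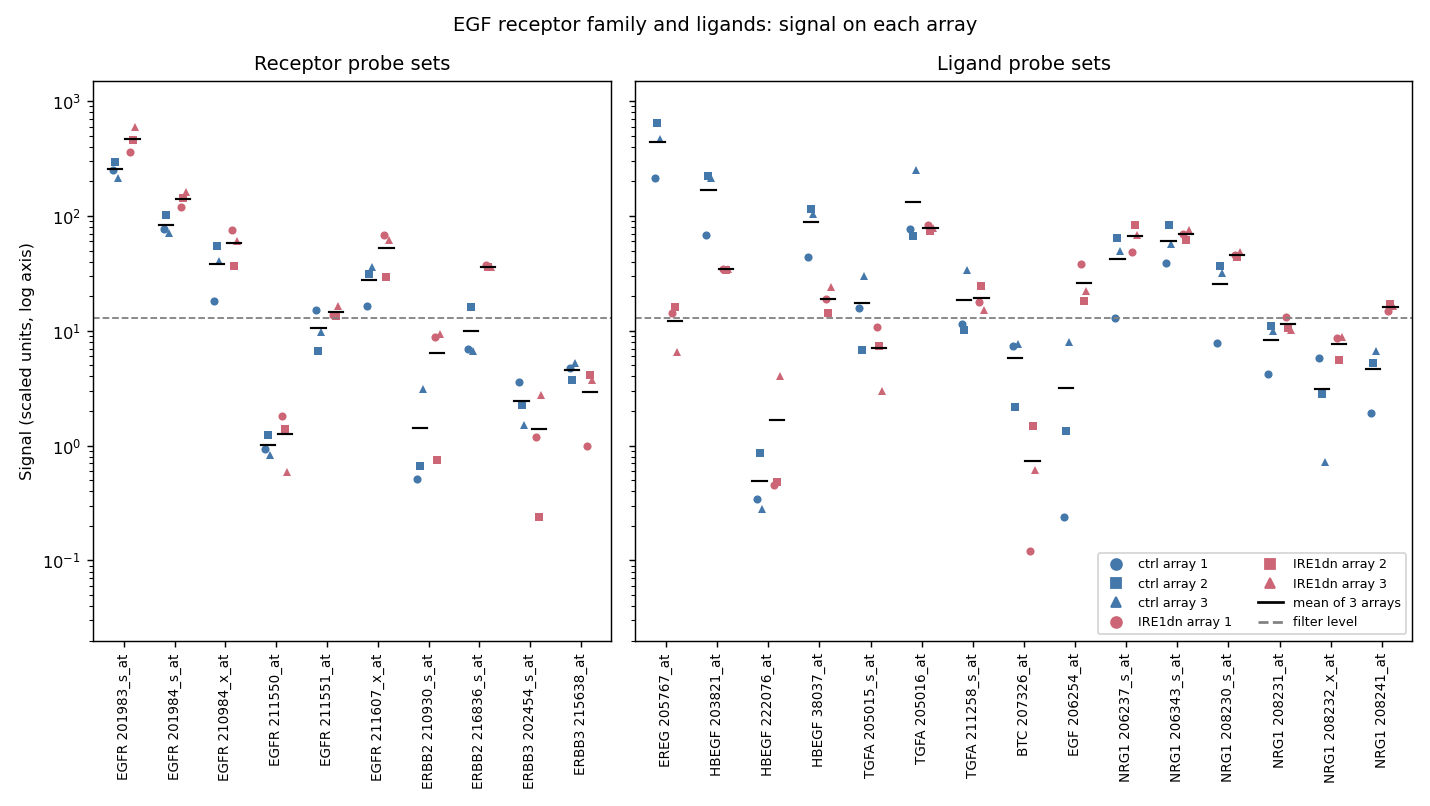
Signal of each member probe set on each array (scaled units, log axis), receptors on the left and ligands on the right, with ctrl arrays in blue, IRE1dn arrays in red, a bar at each mean of 3 arrays and a dashed line at the filter level of 13.0 units. The IRE1dn points of EREG 205767_at lie between 6.50 and 16.1, all under the lowest ctrl point of 213, and those of EGFR 201983_s_at lie between 362 and 601, all above the highest ctrl point of 298.

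The receptors are described first. EGFR, the receptor of EGF, was measured by 6 probe sets. With 201983_s_at the signals were 254, 298 and 213 units in ctrl arrays 1 to 3 and 362, 457 and 601 in IRE1dn arrays 1 to 3. The groups did not overlap, as was the case for 33.5% of all probe sets. The mean of 3 arrays rose from 255 (SD 42.7) to 473 (SD 120.5), which is 0.87 on the log2 scale (SE 0.21, adjusted p = 0.0241). With 201984_s_at the signals were 77.1, 102 and 71.7 in ctrl and 119, 144 and 161 in IRE1dn arrays, again without overlap. This probe set changed by 0.76 on the log2 scale (SE 0.20, adjusted p = 0.0339). Both probe sets gave their highest ctrl value on array 2 and their highest IRE1dn value on array 3, and they measure the same transcript, so they are not independent. Both calls ended without ctrl array 1 or 3 or IRE1dn array 2 or 3 (adjusted p of 0.0566 to 0.146), with log2 changes of 0.66 to 0.88 there. They also ended without an intensity trend in the variance (0.079 and 0.084), and that of 201984_s_at ended with array medians set equal (0.057).

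The other 4 EGFR probe sets did not pass. The 210984_x_at probe set gave 18.3, 55.1 and 40.4 units in ctrl and 75.4, 37.0 and 60.8 in IRE1dn arrays, with overlapping groups and a log2 change of 0.65 (SE 0.41, adjusted p = 0.34). The 211607_x_at probe set gave 16.4, 30.9 and 35.8 against 68.0, 29.2 and 61.4 units, a change of 0.87 (SE 0.39, adjusted p = 0.177). IRE1dn array 2 lay among the controls in both of these probe sets, and their suffix marks probes that may cross-hybridise. Without ctrl array 1, the lowest in both, their changes were 0.22 and 0.56. The 211551_at probe set gave 15.3, 6.66 and 9.80 against 13.7, 13.5 and 16.4 units, around the filter level, and 211550_at was dim on all 6 arrays (0.593 to 1.82 units). All 6 EGFR probe sets had a log2 change above 0, from 0.11 to 0.87, and that of 211550_at turned below 0 when IRE1dn array 1 was left out.

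ERBB2, the partner receptor, had 2 probe sets. With 216836_s_at the signals were 6.98, 16.3 and 6.64 in ctrl and 37.1, 35.9 and 35.6 in IRE1dn arrays. The SD of the IRE1dn arrays was 2.17% of their mean, and only ctrl array 2 among the controls was above the filter level. The mean of 3 arrays rose from 9.97 (SD 5.47) to 36.2 (SD 0.787), which is 1.79 on the log2 scale (SE 0.37, adjusted p = 0.0118). With a pseudocount of 16 the change was 1.03, and without IRE1dn array 2 or 3 the call ended (adjusted p of 0.0591 and 0.0560). The second probe set, 210930_s_at, was dim on all arrays, at 0.513, 0.668 and 3.12 units in ctrl and 8.87, 0.752 and 9.42 in IRE1dn arrays.

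ERBB3, the neuregulin receptor, was dim throughout. Its probe set 202454_s_at gave 3.57, 2.26 and 1.52 units in ctrl and 1.19, 0.238 and 2.73 in IRE1dn arrays. The other, 215638_at, gave 4.72, 3.75 and 5.24 against 0.984, 4.09 and 3.69 units. Neither passed (adjusted p = 0.46 for both), and neither was above the filter level on any array. ERBB4, the remaining receptor of the family and not a member here, was also dim on all arrays, with group means of 3.32 and 3.07 units, and is named after its values were seen.

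**Figure D2:**
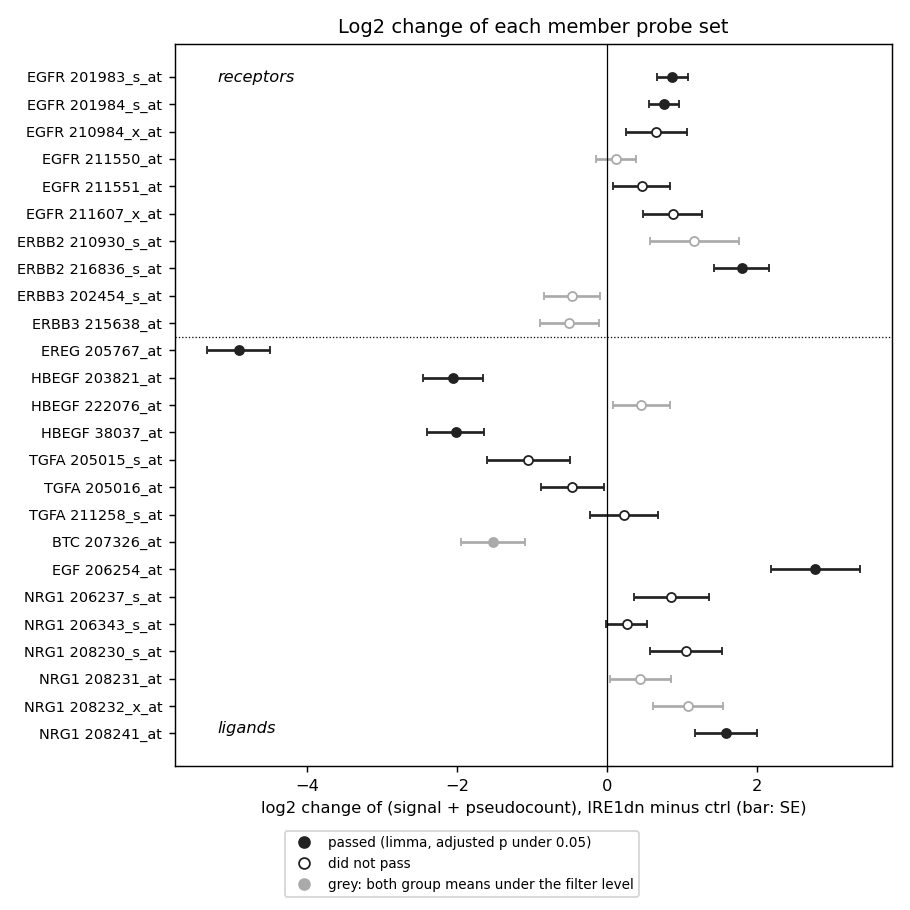
Log2 change of each member probe set, IRE1dn minus ctrl, with bars for the SE. Filled points passed the limma test, open points did not, and grey points had both group means under the filter level. EREG lies at -4.92, both filled HBEGF points near -2, and the filled receptor points between 0.76 and 1.79.

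Among the ligands EREG, epiregulin, had the largest change. Its single probe set, 205767_at, gave 213, 640.5 and 468 units in ctrl arrays 1 to 3 and 14.3, 16.1 and 6.50 in IRE1dn arrays 1 to 3. The lowest control was 13.3 times the highest IRE1dn array, and the controls themselves spread 3.00-fold. The mean of 3 arrays fell from 441 (SD 215) to 12.3 (SD 5.10), which is -4.92 on the log2 scale (SE 0.42, adjusted p = 0.00023). The IRE1dn mean lies under the filter level, so the size of this ratio is imprecise, and with a pseudocount of 16 the change was -3.90. The call held in all 17 alternatives (adjusted p of 4.5e-05 to 0.0031), and leaving out 1 array at a time gave -5.37 to -4.57.

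HBEGF, heparin-binding EGF-like growth factor, fell in 2 of 3 probe sets. With 203821_at the signals were 68.7, 223 and 214 units in ctrl and 34.7, 33.9 and 34.7 in IRE1dn arrays. The IRE1dn arrays were nearly equal, whereas ctrl array 1 lay at 31.5% of the mean of the other controls. The mean of 3 arrays fell from 168 (SD 86.4) to 34.4 (SD 0.439), which is -2.06 on the log2 scale (SE 0.40, adjusted p = 0.0090). With 38037_at the signals were 43.9, 116 and 105 against 18.9, 14.4 and 23.9 units. Here too ctrl array 1 was the lowest control and still above every IRE1dn array, and the change was -2.02 (SE 0.38, adjusted p = 0.0079). Both calls held in every alternative that tested the probe set (17 and 15 settings, adjusted p of 0.00036 to 0.048). The third probe set, 222076_at, was dim on all arrays (0.282 to 4.06 units) and did not pass.

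TGFA, transforming growth factor alpha, did not pass in any of its 3 probe sets, and 1 array set the control spread. With 205016_at the signals were 77.3, 67.1 and 250.4 units in ctrl and 83.1, 74.6 and 78.8 in IRE1dn arrays. Ctrl array 3 stood apart as the highest, ctrl array 1 lay among the IRE1dn arrays, and ctrl array 2 was the lowest of all 6. The log2 change of -0.46 (SE 0.42, adjusted p = 0.53) became 0.13 without ctrl array 3. With 205015_s_at the signals were 15.9, 6.85 and 30.1 against 10.8, 7.36 and 2.99 units (log2 change -1.06, SE 0.56, adjusted p = 0.25), and the change was -0.60 without ctrl array 3 and -0.66 without IRE1dn array 3. With 211258_s_at they were 11.5, 10.2 and 33.6 against 17.8, 24.8 and 15.3 units (0.22, SE 0.45, adjusted p = 0.81). Ctrl array 3 was the highest of the 6 arrays in all 3 TGFA probe sets.

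EGF, the ligand that names the family, rose from a dim signal. Its probe set 206254_at gave 0.241, 1.35 and 8.02 units in ctrl and 38.4, 18.4 and 22.3 in IRE1dn arrays. All controls were under the filter level and all IRE1dn arrays above it. The mean of 3 arrays rose from 3.20 (SD 4.21) to 26.3 (SD 10.6), which is 2.78 on the log2 scale (SE 0.59, adjusted p = 0.0138). The size depends on the pseudocount, at 1.13 with 16, and on ctrl array 3, at 3.44 without it, and the call ended without IRE1dn array 1 or 3 (adjusted p of 0.0585 and 0.0553). BTC, betacellulin, was dim on all 6 arrays. Its probe set 207326_at gave 7.43, 2.15 and 7.71 units in ctrl and 0.120, 1.47 and 0.613 in IRE1dn arrays. It passed the test as lower (log2 change -1.52, SE 0.42, adjusted p = 0.0402), but the change was -0.37 and did not pass with a pseudocount of 16 (adjusted p = 0.060), and the call ended without any single array except ctrl array 2 (0.0748 to 0.138).

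NRG1, neuregulin 1, binds ERBB3 and ERBB4 and comes in many isoforms. Of its 6 probe sets 1 passed, 208241_at, with 1.92, 5.24 and 6.65 units in ctrl and 14.9, 17.3 and 16.6 in IRE1dn arrays. The groups lay on either side of the filter level, and the log2 change was 1.59 (SE 0.41, adjusted p = 0.0313). With a pseudocount of 16 it was 0.65, and the call ended without any single array except ctrl array 3 (adjusted p of 0.0545 to 0.114). The brighter NRG1 probe sets did not pass. With 206343_s_at the signals were 39.2, 83.7 and 57.4 against 69.3, 62.0 and 76.2 units, a log2 change of 0.26 (SE 0.27, adjusted p = 0.60). With 206237_s_at they were 12.9, 64.6 and 50.03 against 48.7, 83.4 and 67.8 (0.86, SE 0.50, adjusted p = 0.31). With 208230_s_at they were 7.81, 36.7 and 32.0 against 46.0, 44.1 and 48.5, where the groups did not overlap but the change of 1.05 did not pass (SE 0.48, adjusted p = 0.187). Ctrl array 1 was the lowest of the 6 arrays in these 3 probe sets, and without it their changes were -0.0088, 0.19 and 0.41. The remaining probe sets, 208231_at (4.22 to 13.3 units) and 208232_x_at (0.719 to 8.83 units), did not pass, and the change of 208231_at was 0.098 without ctrl array 1.

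EREG, AREG and BTC are neighbours on chromosome 4, so the genes beside them were examined, 12 on each side in RefSeq order and 29 in all with the cluster itself. A probe set was available for 10 of the 29. Each of these is represented by its brightest probe set, and over all 11963 genes represented in this way 17.9% passed, 8.67% lower and 9.20% higher. Of the 10 genes 6 were lower and 0 higher in IRE1dn cells. These 6 include EREG and BTC, around which the window was set, besides CXCL5, CXCL3, CXCL2 and MTHFD2L. In all 6 every IRE1dn array lay below every control, as in 17.6% of all genes, passing or not. This is not separate evidence from the pass. All 6 belong to the 7 measured genes from CXCL5 to BTC, the exception being the dim pseudogene PPBPP2 (group means of 0.950 and 0.746 units), and none of the 3 beyond BTC passed.

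MTHFD2L, a mitochondrial enzyme of one-carbon metabolism, is the nearest measured gene before EREG. It gave 162, 262 and 108 units in ctrl and 23.4, 24.5 and 18.6 in IRE1dn arrays. All controls lay above all IRE1dn arrays, and the log2 change was -2.82 (SE 0.31, adjusted p = 0.00067). The chemokine genes CXCL2 and CXCL3 changed by -5.82 (SE 0.56, adjusted p = 0.00043) and -4.59 (SE 0.71, adjusted p = 0.0036). CXCL2 gave 212, 810 and 254 units against 9.11, 5.47 and 1.37, and CXCL3 gave 162, 358 and 53.7 against 10.97, 0.857 and 5.30. These genes are close copies, and the suffix of the CXCL2 probe set marks probes that may cross-hybridise, so their signals may share RNA. Without ctrl array 2 the changes were -5.22 and -3.95, and that of CXCL3 was -5.30 without ctrl array 3 and -3.97 without IRE1dn array 2. CXCL5 passed as lower in 2 of 3 probe sets, with 40.8, 29.2 and 5.12 against 0.988, 0.204 and 1.57 units in its brightest (log2 change -3.00, SE 0.64, adjusted p = 0.0144). That value was -3.80 without ctrl array 3, and the call ended without IRE1dn array 2 or 3 (adjusted p of 0.068 and 0.051). With a pseudocount of 16 the change of CXCL5 was -1.16 and did not pass (adjusted p = 0.051), and that of CXCL3 was -2.97 (adjusted p = 0.011). The mean of the CXCL5 probe sets changed by -1.55 (adjusted p = 0.028).

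Beyond BTC no measured gene passed. PARM1 (log2 change 1.05, SE 0.49, adjusted p = 0.20) and PARM1-AS1 were dim on all arrays. RCHY1, a ubiquitin ligase and the only bright gene on that side, gave 176, 178 and 236 units in ctrl and 178, 161 and 161 in IRE1dn arrays, with overlapping groups and a change of -0.22 (SE 0.17, adjusted p = 0.44). Its next probe set, without overlap between the groups, did not pass (-0.50, SE 0.17, adjusted p = 0.088). Fewer measured genes lie on that side, and the difference between the sides was not tested.

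**Figure D3:**
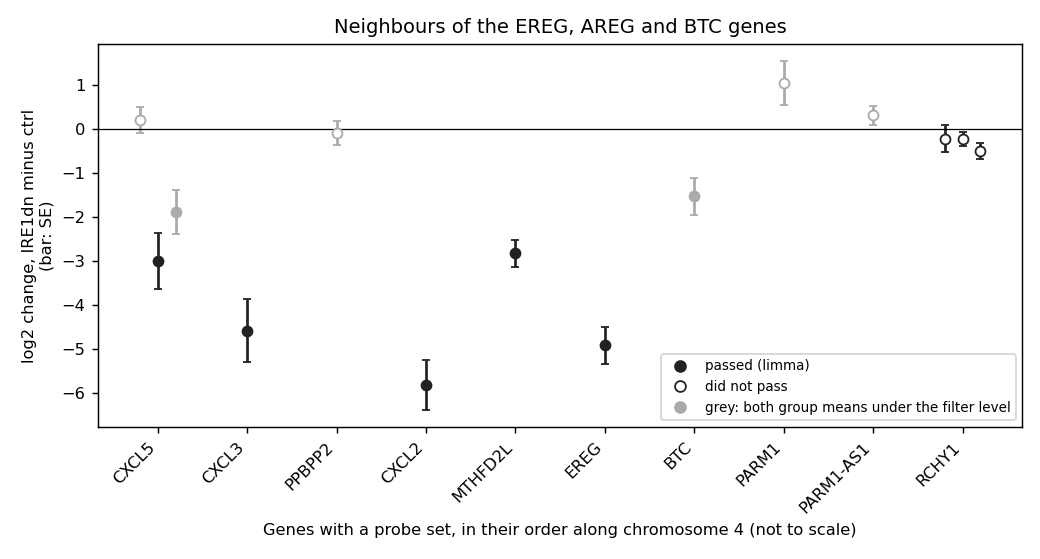
Log2 change (IRE1dn minus ctrl, bars for the SE) of the 14 probe sets of the 10 measured genes around EREG, AREG and BTC, in gene order along chromosome 4 and not to scale. Filled points passed the limma test and grey points had both group means under the filter level. Filled points run from CXCL5 to BTC, and none of PARM1, PARM1-AS1 and RCHY1 is filled.

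Other genes of the pathway were followed in 6 lists, of which 91 genes had a probe set. Of the 91, 11 were higher and 9 lower in IRE1dn cells, with a median log2 change of 0.0036. These shares, 12.1% and 9.89%, lie near those of all genes (9.20% higher and 8.67% lower, median 0.02). The same shares of all genes are the background for the counts of single lists below, which are small. Leaving out 1 array at a time gave 5 to 15 higher and 2 to 12 lower.

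Of 15 genes of ligand shedding and trafficking 3 were higher and 2 lower. PCSK5, a proprotein convertase, rose from 19.2 ± 6.82 to 89.1 ± 4.40 units (SD of 3 arrays), or by 2.18 on the log2 scale (SE 0.29, adjusted p = 0.0018), and all 3 of its probe sets passed. ADAM12, a metalloprotease able to cut HBEGF, rose from 194 ± 18.9 to 525 ± 41.0 units (1.43, SE 0.15, adjusted p = 0.00058), and 2 of its 4 probe sets passed as higher. Another went to -0.61, and the mean of the 4 changed by 0.78 (adjusted p = 0.048). ADAM19 changed by 1.45 in 1 of 2 probe sets, while the other went to -0.57, and the mean of both did not pass (0.44, adjusted p = 0.42). Its call also ended without IRE1dn array 2 (adjusted p = 0.053), and with a pseudocount of 16 the change was 0.91. CD9, a tetraspanin that associates with the HBEGF precursor, fell from 657 ± 104 to 276 ± 80.4 units (-1.28, SE 0.23, adjusted p = 0.0063). ADAM8 fell by 1.26 on the log2 scale (SE 0.34, adjusted p = 0.035), a call that ended without any single array except ctrl array 2 (0.081 to 0.124). With a pseudocount of 16 its change was -0.79. The main sheddases did not pass. ADAM17, which sheds most ligands of EGFR, measured 103 ± 8.33 and 75.5 ± 6.83 units (-0.44, SE 0.17, adjusted p = 0.13), and ADAM10, which sheds EGF and BTC, measured 466 ± 54.0 and 499.6 ± 3.37 (0.11, SE 0.14, adjusted p = 0.70). They were singled out for their role after their values were seen.

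Of 19 receptor inhibitors and degradation genes 3 were higher and 0 lower. LRIG1, a membrane protein that promotes the breakdown of EGFR, gave 60.4, 111 and 126 units in ctrl and 470, 397 and 357 in IRE1dn arrays. The groups stood far apart, and the log2 change was 2.08 (SE 0.26, adjusted p = 0.0013). CBLB, a ubiquitin ligase of activated receptors, rose from 81.0 ± 16.4 to 333 ± 27.7 units (2.03, SE 0.18, adjusted p = 0.00032), and its second probe set did not pass. The phosphatase PTPRK rose by 0.82 (SE 0.16, adjusted p = 0.0095), with the call ending without IRE1dn array 2 (0.057). The count became 4 higher without ctrl array 3 and 2 without IRE1dn array 2, and 1 gene was lower without ctrl array 1.

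Of 25 adaptors and relay genes 5 were higher and 1 lower. PLCG1, a phospholipase recruited by the receptors, rose from 48.2 ± 4.995 to 151 ± 9.91 units (1.61, SE 0.18, adjusted p = 0.00067). Its second probe set changed by 0.85 and did not pass. The adaptor NCK2 rose from 106 ± 36.6 to 239 ± 14.1 units (1.22, SE 0.25, adjusted p = 0.012). The lipid kinase subunit PIK3R1 rose by 1.18 (SE 0.28, adjusted p = 0.023). The others, named after their values were seen, were STAT5B (0.95, SE 0.22, adjusted p = 0.021) and MAP2K1 (0.55, SE 0.15, adjusted p = 0.038). Of the 3 PIK3R1 probe sets 1 passed, and their mean did not (0.75, adjusted p = 0.0505). MAP2K2, an ERK kinase, fell by 0.91 (SE 0.20, adjusted p = 0.017) in 1 of 3 probe sets, and their mean did not pass (-0.68, adjusted p = 0.083). The calls of NCK2, PIK3R1 and MAP2K2 ended without IRE1dn array 2 or 3 (0.057 to 0.115), that of PIK3R1 also without ctrl array 1 (0.0625) and that of MAP2K2 without ctrl array 2 (0.0501). The list held 1 higher gene without IRE1dn array 2 or 3, 3 without ctrl array 1 and 7 without ctrl array 3. The 1 gene left without IRE1dn array 2 or 3 was PLCG1, so the calls of STAT5B and MAP2K1 also ended there.

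Of 11 ERK feedback inhibitors 0 were higher and 4 lower, with a median log2 change of -0.44. DUSP6, the phosphatase of ERK, gave 249.8, 374 and 256 units in ctrl and 29.4, 43.5 and 26.7 in IRE1dn arrays. Its log2 change was -3.08 (SE 0.24, adjusted p = 0.00012), and all 3 of its probe sets fell. SPRY4 (-1.53, SE 0.34, adjusted p = 0.016), DUSP1 (-1.41, SE 0.31, adjusted p = 0.016) and SPRY2 (-1.29, SE 0.35, adjusted p = 0.038, named after its values were seen) were the others. The SPRY4 call ended without ctrl array 2 (0.057) or IRE1dn array 3 (0.067), with a change of -0.92 at a pseudocount of 16, and that of DUSP1 without IRE1dn array 1 (0.058) or 3 (0.079). SPRY2 gave 149, 357 and 462 units in ctrl and 112, 127 and 116 in IRE1dn arrays. Its call ended without IRE1dn array 1, 2 or 3, without ctrl array 2 or 3, and with a pseudocount of 16. The list held 6 lower genes without ctrl array 1, 2 without ctrl array 2 or IRE1dn array 1, and 1 without IRE1dn array 3.

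Of 19 ERK-responsive transcripts 0 were higher and 2 lower, with a median of 0.0036. Most did not pass, as was the case for all genes, of which 17.9% passed and 8.67% were lower. LIF, a cytokine, went from 75.8 ± 54.3 to 13.1 ± 3.17 units (-2.14, SE 0.50, adjusted p = 0.0198), and JUNB from 49.5 ± 4.36 to 24.5 ± 8.16 (-1.01, SE 0.29, adjusted p = 0.0467). The JUNB call ended without any single array (0.059 to 0.131), and that of LIF without any IRE1dn array or ctrl array 2 (0.050 to 0.083). The classical early target EGR1, singled out for its role after its values were seen, measured 48.4 ± 22.7 and 41.6 ± 8.84 units (-0.11, SE 0.36, adjusted p = 0.88). Of the other family genes only ERBB4 and NRG2 had a probe set and neither passed. NRG2, a second neuregulin named after its values were seen, measured 16.3, 13.6 and 21.1 units in ctrl and 10.8, 1.34 and 0.964 in IRE1dn arrays (-1.97, SE 0.58, adjusted p = 0.0504). This list of 2 genes held 1 lower gene in 8 of the 17 alternatives.

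**Figure D4:**
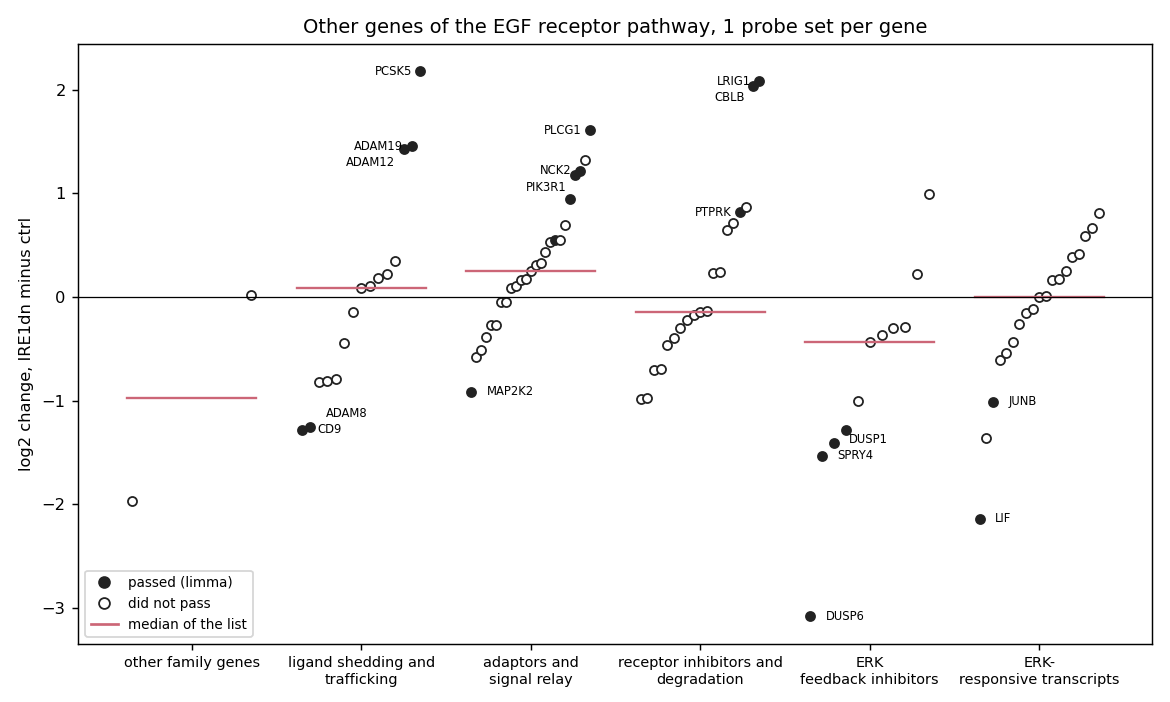
Log2 change (IRE1dn minus ctrl) of the 91 measured genes of 6 pathway lists, 1 probe set per gene, ordered by value within each list, with a red bar at the median of each list. Filled points passed the limma test. PCSK5, LRIG1 and CBLB are the filled points above 2, and DUSP6 lies lowest at -3.08.

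The genes whose profile over the 6 arrays was most like that of a member were found by the root mean square (RMS) difference of log2 values, each centred on its own mean. The measure includes the difference between the groups as well as the order of arrays within them. For EREG they were MMP1, a collagenase (RMS 0.43), the protease inhibitor TFPI2 (0.54), the retinal dehydrogenase ALDH1A3 (0.62), CXCL2 (0.64) and the bradykinin receptor BDKRB1 (0.67). MMP1 repeated the order of the controls, with 31.7, 73.3 and 44.8 units in ctrl arrays and under 1 unit in IRE1dn arrays. CXCL2 also repeated it, whereas TFPI2, ALDH1A3 and BDKRB1 did not. For HBEGF they were ODC1, the polyamine enzyme ornithine decarboxylase (RMS 0.20), FOXL1 (0.25), FJX1 (0.26), GPRC5A (0.30) and GCNT3 (0.30). ODC1 gave 441, 1234 and 1104 units in ctrl and 199, 272 and 243 in IRE1dn arrays, so that ctrl array 1 was the lowest control as it was for HBEGF. For EGFR they were GBF1 (RMS 0.08), FAN1 (0.08), CNR2 (0.09), GNAS (0.10) and GLO1 (0.10), of which GNAS and GLO1 passed as higher.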

How the data were processed

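Total RNA of 6 samples was made into cRNA and hybridised to Affymetrix arrays, per the labels' protocols. Each probe set has 1 deposited intensity per array, on a linear scale. They were made with GCOS 1.2, per the submitters' processing notes, and scaled so that each array's mean after trimming 2% at each end is 100.03 units. How probes were summarised and background was removed is not given in the sources used here. A change shared by all transcripts would not be seen after this scaling; precision is limited by having 3 arrays per group.

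Probe sets were named from the platform annotation, with symbols updated by identifier to RefSeq (19052 of 19064 with 1 symbol matched; 1043 had several symbols and 2108 none; 62 controls were left out). Values were taken as log2(signal + 1.75), the 20th percentile of all values. The comparison used lmFit and eBayes of limma 3.58.1 (R 4.3.3) with an intensity trend, two-sided, without covariate or filter, adjusted over all 22215 probe sets. A gene in a list is represented by the probe set whose mean log2 value is highest. The test was checked on simulated data. Members and lists were chosen with earlier results of these data known. Named genes are all member probe sets, up to 3 increases and 3 decreases of each list, the measured neighbours, and the 5 nearest profiles of EREG, HBEGF and EGFR; other genes of the lists are marked as named after their values were seen, and marker genes are those of the marker lists. The alternatives were other pseudocounts, scalings, filters, variance models, probe set choices, a replicate block and each array left out. AREG and pathway genes without a probe set of 1 symbol were not analysed here.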

Additional observations from a re-analysis of the deposited data

How the results depend on the processing

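Over the 17 alternatives, 347 of 382 values of member probe sets kept their direction and side of the threshold, 30 were calls that ended and 5 turned sign, none of them a called value. The 5 turned only without 1 array, and the ranges over arrays left out were -0.017 to 0.29 for EGFR 211550_at, -0.0071 to 0.69 for HBEGF 222076_at, -0.0088 to 0.52 for NRG1 206343_s_at, -0.065 to 0.71 for TGFA 211258_s_at and -0.81 to 0.13 for TGFA 205016_at, with -0.26 to 0.15 for the neighbour PPBPP2. Leaving out 1 array gave 0 to 3 receptor probe sets higher and 0 lower, 0 to 2 ligand probe sets higher and 3 to 4 lower, 5 to 15 list genes higher and 2 to 12 lower, and 770.0 to 1878 probe sets higher and 593 to 1561 lower in all. With 1 array fewer in 1 of the groups a call can end although the change hardly moves. Without an intensity trend 1 receptor probe set was higher, 5 list genes were lower and 936 probe sets were lower in all. Besides the EGFR calls, this setting ended those of BTC, PIK3R1, MAP2K2, PTPRK, DUSP1 and JUNB (limma adjusted p of 0.051 to 0.064). With a 60th percentile filter, or with 1 probe set per gene above the 40th percentile, 0 ligand probe sets were higher and 2 lower, because fewer were tested. Same-numbered arrays did not clearly deviate together (r of deviations of -0.080, 0.025 and -0.015). With 3 arrays per group this cannot decide whether the numbers pair the samples. With the replicate block 2 receptor probe sets were higher, 2 ligand probe sets higher and 3 lower, 11 list genes higher and 7 lower, and 1457 probe sets were higher and 1287 lower in all. The block ended the calls of EGFR 201984_s_at (limma adjusted p = 0.055) and BTC (0.074) among the members. In the lists it ended those of ADAM8 (0.053) and JUNB (0.076), among others. Dim signals limit ERBB3, BTC, EGF, the passing NRG1 probe set and both ERBB2 probe sets: their log2 sizes depend on the pseudocount.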

Other observations

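The spread of the members was larger in the controls, as it was over all genes (median SD of 0.34 against 0.23 on the log2 scale). Of the 13 member probe sets with a mean above the filter level, 11 had the larger SD as a share of the mean in ctrl arrays. For HBEGF 203821_at this share was 51.3% in ctrl and 1.27% in IRE1dn arrays, for ERBB2 216836_s_at it was 54.9% and 2.17%, and for TGFA 205016_at it was 78.3% and 5.41%. EGFR 201983_s_at was an exception, with 16.7% and 25.5%. Ctrl array 1 was the lowest control in 8 of the 13 and the highest in 0, and ctrl array 2 was the highest in 10. Ctrl array 3 was the highest in the other 3, among them both TGFA probe sets above the level. Such counts were not made over all probe sets, and several of the 13 measure the same gene, so they are not independent. For ACTB the ratio of 3′ to 5′ signal, a measure of RNA quality, was 1.21, 1.16 and 1.19 in ctrl arrays 1 to 3 and 1.09, 1.21 and 1.64 in IRE1dn arrays 1 to 3. For GAPDH this ratio was 0.923, 0.911 and 0.869 in ctrl arrays 1 to 3 and 0.895, 0.899 and 0.940 in IRE1dn arrays 1 to 3. The part of RNA quality in these values was not tested.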
